A study of Mus musculus with 375 samples.

Results

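The 10 genes described here encode surface molecules through which an epithelial cell can signal to T cells: Sectm1a and Sectm1b, the butyrophilin-like genes Btnl1, Btnl2, Btnl4 and Btnl6, and the co-stimulatory or co-inhibitory ligand genes Cd274, Icosl, Pvr and Cd83. They were chosen by name and by their TPM (a level scaled for transcript length and for the cell's total) per set and diet in these same cells, so every diet difference below is a description of the values that led to the choice and gives no independent support. All 10 were among the 23420 genes of the table, and all 10 passed the filter on low genes, a mean of at least 1 TPM over the sets, which left 11667 genes tested. The cells came from the small intestine of mice on either of a pair of diets, control or high-fat (HFD), were sorted by flow cytometry for Lgr5, the receptor that marks crypt base stem cells, and were sequenced 1 cell at a time with Smart-seq2, which copies full-length cDNA. The titles placed them in 4 sets, control 1, control 2, HFD 1 and HFD 2, and 367 of 375 cells had at least 2000 genes above 0 TPM (93, 91, 91 and 92). The sources used here give no strain, age, sex, diet composition or time on diet, and it is not stated there whether each set came from its own mice. The p-values therefore rest on the spread between these 4 sets alone, which may be technical. In the limma test the spread of a gene is also drawn toward that of all tested genes.

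Most of these ligands have a known partner on lymphocytes. SECTM1 proteins bind CD7 on T cells and natural killer cells. Butyrophilin-like proteins belong to the immunoglobulin superfamily: in the mouse small intestine, BTNL1 paired with BTNL6 sustains the gamma delta intraepithelial T cells that carry the Vγ7 chain, BTNL1 can also pair with BTNL4, and BTNL2 restrains T cell activation. PD-L1, the product of Cd274, engages the inhibitory receptor PD-1, ICOSL engages ICOS, and the poliovirus receptor PVR (CD155) is shared by the activating receptor CD226 and the inhibitory receptors TIGIT and CD96. CD83, best known from dendritic cells, keeps MHC class II and CD86 at the cell surface.

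The genes lie in 2 clusters and at 4 single loci (GENCODE M21, GRCm38). Sectm1b (chr11:121053458-121063569) and Sectm1a (chr11:121067407-121081220) are neighbours on the minus strand, about 4 kb apart. Btnl2 (chr17:34354822-34369495), Btnl1 (chr17:34377132-34386028), Btnl4 (chr17:34466562-34477318) and Btnl6 (chr17:34507804-34517352) span about 163 kb of the MHC region, and Btnl2 begins about 38 kb past the end of the class II gene H2-Eb1. Cd274 is on chromosome 19, Icosl on 10, Pvr on 7 and Cd83 on 13. Sequence upstream of the annotated start was found in RefSeq (GRCm38.p6) for 7 of the 10 genes. The 250 bases before the start are printed for Sectm1b, the member called lower over all genes, for Btnl2 and Btnl1, neighbours that were both found in fewer HFD cells, and for Cd274, an interferon-responsive gene in many cell types. Capitals mark matches to the letters searched, and the windows are at chr11:121063570-121063819 (minus strand), chr17:34354572-34354821 (plus strand), chr17:34376882-34377131 (plus strand) and chr19:29367188-29367437 (plus strand).
Sectm1b: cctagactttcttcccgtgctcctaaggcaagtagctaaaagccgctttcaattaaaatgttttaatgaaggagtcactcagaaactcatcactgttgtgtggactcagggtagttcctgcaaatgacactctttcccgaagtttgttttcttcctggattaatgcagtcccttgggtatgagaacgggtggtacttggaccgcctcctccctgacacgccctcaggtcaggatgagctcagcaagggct
Btnl2: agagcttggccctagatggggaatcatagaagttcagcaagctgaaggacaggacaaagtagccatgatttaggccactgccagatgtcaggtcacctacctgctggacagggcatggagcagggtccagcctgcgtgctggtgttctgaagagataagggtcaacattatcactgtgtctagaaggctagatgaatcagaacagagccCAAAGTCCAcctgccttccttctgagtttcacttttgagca
Btnl1: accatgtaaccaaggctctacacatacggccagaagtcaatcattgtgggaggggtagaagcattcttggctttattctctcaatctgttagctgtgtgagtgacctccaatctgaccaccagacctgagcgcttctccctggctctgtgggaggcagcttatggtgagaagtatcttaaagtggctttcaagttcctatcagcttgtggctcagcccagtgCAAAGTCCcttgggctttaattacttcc
Cd274: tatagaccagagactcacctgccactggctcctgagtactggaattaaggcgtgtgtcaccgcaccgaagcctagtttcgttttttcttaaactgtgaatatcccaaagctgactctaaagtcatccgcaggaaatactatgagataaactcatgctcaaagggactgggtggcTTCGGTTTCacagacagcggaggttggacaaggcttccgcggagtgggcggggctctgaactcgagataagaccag

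In the RefSeq windows, which run from 250 bases before to 50 bases after the start, 3 short motifs are described, each searched on both strands. CAAAGTCCA, letters bound by the gut nuclear receptors HNF4A and HNF4G, stood 41 bases before the Btnl2 start and in 1 of the 7 member windows, against 0.475% of 32851 windows in the table. Its first 8 letters, CAAAGTCC, also stood 28 bases before the Btnl1 start, so that 2 of 7 members held them, against 1.42% of all windows; this shorter form was chosen after the Btnl1 window was seen. GAAANNGAA, the core of an interferon-stimulated response element, was found on the opposite strand 76 bases before the Cd274 start and in none of the other 6 windows, against 8.56% of all windows. TTTATNG, the form bound by CDX factors, was in 0 of 7 windows, against 10.9%. The Btnl4 and Btnl6 windows were 90.5% identical over 252 aligned positions, whereas the other 20 pairs of windows were 45.8% to 52.4% identical. For Btnl4 and Btnl6 the RefSeq start appears to sit at the start codon, and the Btnl4 window lies inside the longer GENCODE gene. These 2 of the 7 windows may therefore not be the sequence before the first transcribed base, and they are not printed. The Icosl sequence before the RefSeq start (chr10:78069118-78069367) runs past the GENCODE start at 78069302, so part of it lies inside that gene, and it is not printed either. These matches describe letters and are not evidence of binding.

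Sectm1b had the highest mean level of the 10, and the order below it held only in steps. Averaged over the 4 sets, Sectm1b stood at 49.6 TPM, Btnl1 at 32.6, Btnl4 at 26.1, Btnl6 at 18.2, Cd83 at 11.03, Btnl2 at 9.09, Pvr at 6.27, Sectm1a at 2.55, Cd274 at 1.84 and Icosl at 1.21 TPM. In the control sets the ranges of Btnl1 and Btnl4 overlapped, as did those of Cd83 and Btnl2, while the other neighbours in this order were separate. In the HFD sets the values of Sectm1b lay inside the range of Btnl1. Sectm1b was above 81.7% of tested genes in mean level and Icosl above 2.25%, so the 10 genes cover most of the range of measured transcripts.

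**Figure D1:**
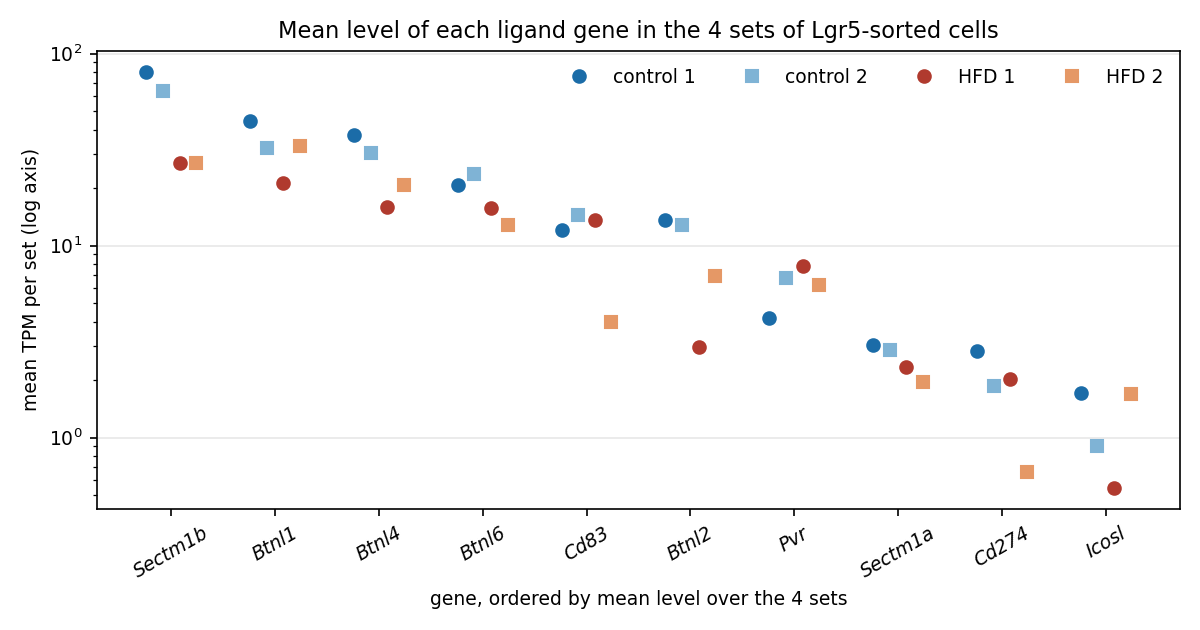
Mean TPM of the 10 ligand genes (log axis) in each of the 4 sets, with circles for set 1 and squares for set 2 of each diet (blue, control; red and orange, HFD). Both HFD points lie below both control points for Sectm1b, Btnl4, Btnl6, Btnl2 and Sectm1a.

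Of the 10 genes, 1 was called lower and 0 higher in HFD cells at a limma adjusted p under 0.05. The same rule called 0.137% of all tested genes lower and 0.506% in either direction. The log2 fold change, HFD over control on the scale log2(mean TPM + 1), which understates changes of low genes, was negative for 9 members and positive for 1, with a median of −0.59, where all tested genes had a median of 0.13 and 37.5% were negative. Both HFD means lay below both control means for 5 of the 10 genes, against 12.3% of tested genes. Both HFD shares of cells at 1 TPM or more lay below both control shares for 5 of the 10, against 11.8%. Since the 10 were picked with these values known, the counts describe the choice. In sorted cells averaged per set, fewer cells with a transcript and less transcript per cell both lower the mean, so the share of cells is given beside each level.

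Sectm1b, the CD7 ligand gene, was the member called lower in HFD cells. Its set means were 80.5 TPM in control 1, 63.8 TPM in control 2, 27.0 TPM in HFD 1 and 26.9 TPM in HFD 2, that is 72.2 ± 11.8 against 27.0 ± 0.0483 TPM (SD, n = 2 sets each). The control sets lay well above the HFD sets, with no overlap. The log2 fold change was −1.38 (SE 0.25, limma adjusted p = 0.00648). The 2 HFD sets were almost equal, whereas the control sets lay further apart.

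A smaller share of HFD cells held Sectm1b. At 1 TPM or more it was found in 63 of 93 cells of control 1 (67.7%, 95% Clopper-Pearson interval 57.3 to 77.1%) and 61 of 91 of control 2 (67.0%, 56.4 to 76.5%). In HFD 1 it was found in 47 of 91 cells (51.6%, 40.9 to 62.3%) and in HFD 2 in 42 of 92 (45.7%, 35.2 to 56.4%); these intervals cover counting error only. The mean share differed by −18.7 percentage points (pooled SD 3.02, exact permutation p = 0.333, the smallest that 4 sets allow). Among cells with the transcript, the median was 69.5 and 51.1 TPM on the control diet, compared with 29.4 and 47.4 TPM on the HFD. The mean log2 TPM of these cells differed by −0.47 (pooled SD 0.33), a factor of 0.720, and the factor between the shares of cells was 0.722. The first factor is of log means, so the pair does not divide the fall of the set means into level and share. The mean TPM of cells with the transcript was 118.9 and 95.2 on the control diet, compared with 52.3 and 59.0 on the HFD. The highest cell of control 1 held 1305 TPM and made up 17.4% of that set's total, and without the highest cell of each set the fold change was −1.33 (SE 0.26, limma adjusted p = 0.00197).

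**Figure D2:**
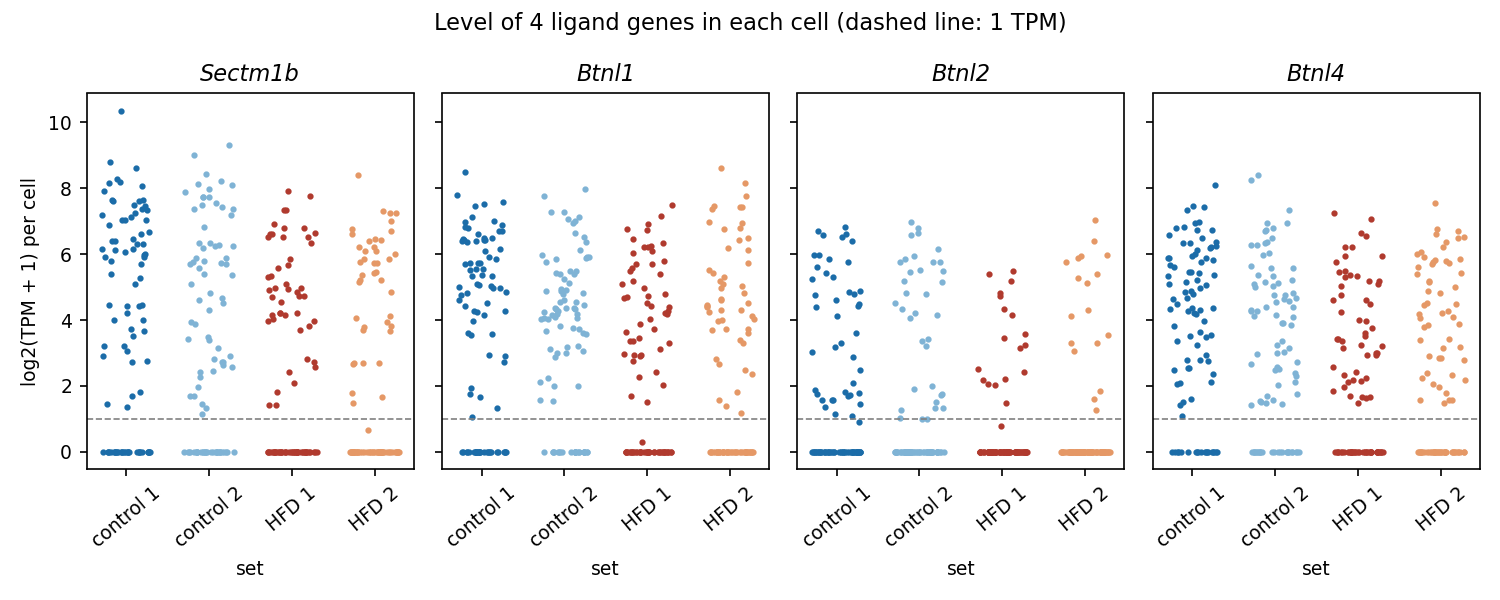
Level of Sectm1b, Btnl1, Btnl2 and Btnl4 in each cell as log2(TPM + 1), 1 point per cell, for the 4 sets; the dashed line marks 1 TPM. More points sit at 0 in the HFD sets than in the control sets for all 4 genes, and the upper reach of Sectm1b is lower in the HFD sets.

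Both HFD means of Sectm1b were the lower ones in cells with and in cells without proliferation markers, which themselves differed in number. Cells with at least 3 of 7 proliferation markers at 10 TPM or more made up 73.1%, 69.2%, 87.9% and 81.5% of control 1, control 2, HFD 1 and HFD 2. In cells with these markers the Sectm1b means were 61.6 and 41.2 TPM on the control diet, and 25.8 and 23.2 TPM on the HFD (log2 fold change −1.01, SE 0.27, limma adjusted p = 0.272). In cells without them they were 131.9 and 114.7 TPM against 35.5 and 43.4 TPM (−1.62, SE 0.38, adjusted p = 0.835). In each of the 4 sets the cells without proliferation markers had the higher mean, and 76.0% and 82.1% of them held Sectm1b in the control sets against 3 of 11 and 9 of 17 cells in the HFD sets. The call over all genes was absent in either group of cells alone, and also with Rn45s left out of the TPM total (adjusted p = 0.112), with all 375 cells (0.0705), with logs taken per cell (0.0771) and with no filter on low genes (0.668).

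Sectm1a, the neighbour of Sectm1b, was a rare transcript. Cells that held it numbered 11 and 8 in the control sets, then 7 and 4 in the HFD sets, and its set means were 3.03, 2.86, 2.35 and 1.94 TPM. The HFD means lay below the control means by a small margin, and the log2 fold change of −0.33 (SE 0.44) did not pass (limma adjusted p = 0.830). In the control sets, 10 of 11 and 7 of 8 cells with Sectm1a also held Sectm1b. In the HFD sets 4 of 7 and 2 of 4 did. Transcripts of the pair share no stretch of 25 bases in GENCODE.

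Among the butyrophilin-like genes, Btnl2 differed most in log2 fold change and in share of cells, although with logs averaged per cell its fold change (−0.93) was smaller than that of Btnl4 (−1.07) and Btnl1 (−1.02). Its means were 13.6 TPM in control 1 and 12.8 TPM in control 2, compared with 2.98 TPM in HFD 1 and 6.93 TPM in HFD 2, without overlap. The log2 fold change was −1.34 (SE 0.37), close to that of Sectm1b, and did not pass over all genes (limma adjusted p = 0.144). Cells that held it numbered 43 of 93 and 35 of 91 on the control diet, but 18 of 91 and 18 of 92 on the HFD. The mean share differed by −22.7 percentage points (42.3% against 19.7%, pooled SD 3.89, exact permutation p = 0.333). In cells that held Btnl2, the mean log2 TPM differed by −0.03 (pooled SD 0.50), less than the spread between sets, and the HFD sets were unlike: the median in those cells was 20.2 and 21.9 TPM in control 1 and control 2, 9.18 TPM in HFD 1 and 26.1 TPM in HFD 2. Without HFD 1 the fold change was −0.84 (adjusted p = 0.484), and without HFD 2 it was −1.84 and was called (0.0141).

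Cells without proliferation markers showed the Btnl2 difference at its widest. There, Btnl2 was found in 8 of 25 and 13 of 28 control cells, in 0 of 11 cells of HFD 1, which allows a share of up to 27.3%, and in 1 of 17 cells of HFD 2. In cells with the markers the shares were 51.5% and 34.9% on the control diet, compared with 22.5% and 22.7% on the HFD. The log2 fold change was −2.94 (SE 0.89) in cells without the markers and −1.18 (SE 0.39) in cells with them, and neither passed (limma adjusted p = 0.835 and 0.403).

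Btnl4 and Btnl1, which encode partner chains, were also found in fewer HFD cells. Btnl4 means were 37.4 and 30.5 TPM on the control diet, and 15.8 and 20.7 TPM on the HFD, without overlap (log2 fold change −0.87, SE 0.28, limma adjusted p = 0.234). It was held by 74 of 93, 67 of 91, 52 of 91 and 55 of 92 cells, so the mean share was 76.6% against 58.5%. Btnl1 averaged 44.3, 32.1, 21.1 and 32.8 TPM in control 1, control 2, HFD 1 and HFD 2, and HFD 2 lay just above control 2 (−0.50, SE 0.28, adjusted p = 0.518). Its shares did not overlap: 69.9% and 75.8% of cells held it on the control diet, 54.9% and 55.4% on the HFD. The share differences were −18.1 points for Btnl4 (pooled SD 3.25) and −17.7 points for Btnl1 (pooled SD 2.98), each at the smallest exact permutation p of 0.333. In cells in the interquartile range of genes per cell, the Btnl1 difference was −7.47 points and that of Btnl4 −15.7 points. Without HFD 1 the Btnl1 fold change was −0.20, and without control 1 it was −0.28.

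Btnl6, the partner that completes the BTNL1 dimer recognised by Vγ7 cells, had lower means in the HFD sets but no clear difference in share. Control means of 20.8 and 23.7 TPM stood against HFD means of 15.7 and 12.7 TPM, without overlap, and the log2 fold change of −0.62 (SE 0.29) did not pass (limma adjusted p = 0.436). The share of cells with Btnl6 was 55.9% in control 1, 50.5% in control 2, 56.0% in HFD 1 and 41.3% in HFD 2, so the groups overlapped. The share difference of −4.56 points (pooled SD 7.84) was 13.6 points, in the opposite direction, in cells in the interquartile range of genes per cell. In cells that held Btnl6 the mean log2 TPM differed by −0.54 (pooled SD 0.28).

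**Figure D3:**
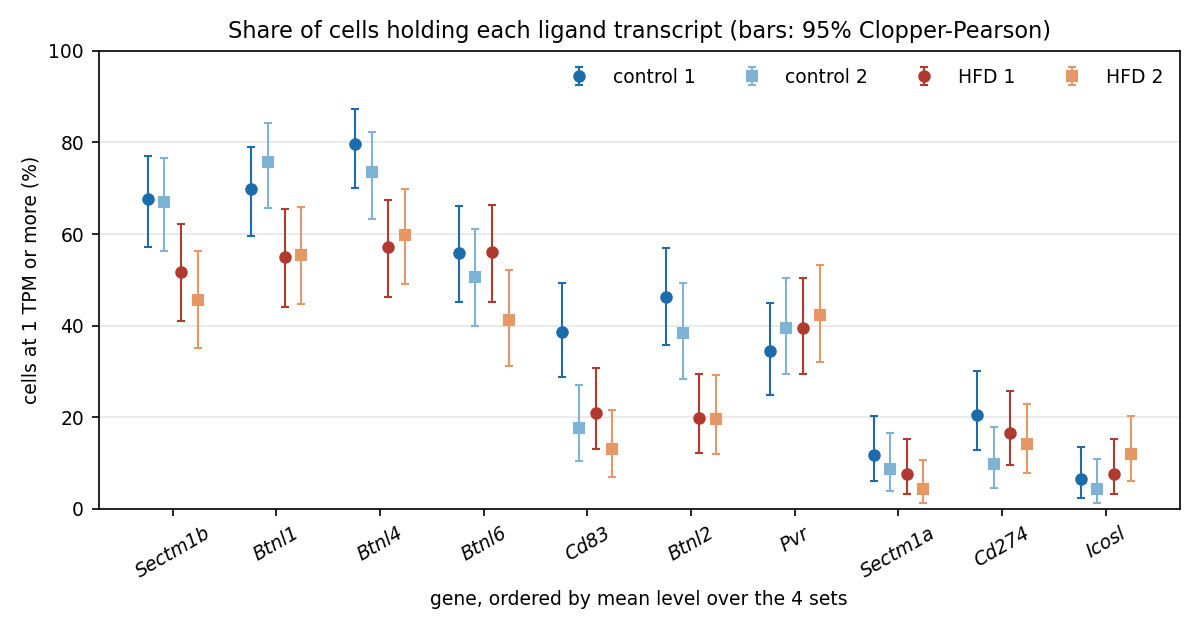
Share of cells at 1 TPM or more for each gene and set, with 95% Clopper-Pearson intervals (counting error only). The control shares of Sectm1b, Btnl1, Btnl4, Btnl2 and Sectm1a are both above the HFD shares, while those of Btnl6, Cd83, Pvr and Cd274 overlap and Icosl is higher in the HFD sets.

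Cells holding all 3 chains Btnl1, Btnl4 and Btnl6 were fewer in the HFD sets. This count depends on the shares of the 3 genes, of which those of Btnl1 and Btnl4 were lower, and is not a separate result. Such cells made up 27 of 93 in control 1 (29.0%), 29 of 91 in control 2 (31.9%), 16 of 91 in HFD 1 (17.6%) and 18 of 92 in HFD 2 (19.6%). Cells with none of the 3 numbered 5, 3, 10 and 14 in the same order. Btnl1 and Btnl6 were found together in 35.5%, 39.6%, 35.2% and 26.1% of cells, where the product of their shares was 39.1%, 38.3%, 30.8% and 22.9%. Reads of Btnl4, Btnl6 and the neighbouring Btnl5, which GENCODE lists as the pseudogene Btnl5-ps, are uncertain: 20.9% of the 25-base stretches of Btnl4 occur in Btnl5-ps and 9.99% in Btnl6, and RSEM divides such reads by estimate. Of the 50-base stretches of Btnl4, 9.11% occur in Btnl5-ps and 1.16% in Btnl6. Of the 25-base stretches of Btnl6, 15.5% occur in Btnl5-ps and 13.6% in Btnl4. Btnl5 averaged 70.7, 48.5, 44.7 and 39.4 TPM in control 1, control 2, HFD 1 and HFD 2, above Btnl4 and Btnl6 in every set. The part of such reads in the Btnl4 and Btnl6 values was not tested. Btnl1 and Btnl2 transcripts share no 25-base stretch.

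None of the other ligand genes, Cd274, Icosl, Pvr and Cd83, passed. Cd274 averaged 2.82, 1.87, 2.02 and 0.665 TPM in control 1, control 2, HFD 1 and HFD 2 and was found in 19, 9, 15 and 13 cells, with a log2 fold change of −0.56 (SE 0.49, limma adjusted p = 0.714). Its median in the cells that held it was 2.29, 1.39, 2 and 1.87 TPM, and the highest cell alone made up 60.2%, 60.9%, 51.8% and 52.3% of the set's total. Without HFD 2 the Cd274 fold change was −0.13, and without HFD 1 it was −0.99; without control 1 it was −0.35. Icosl averaged 1.71, 0.900, 0.546 and 1.68 TPM and was found in 6, 4, 7 and 11 cells. Its share was higher in the HFD sets without overlap (9.82% against 5.42%, exact permutation p = 0.333) while its fold change was −0.16 (SE 0.52, adjusted p = 0.941), and the cells that held it had a lower mean log2 TPM by −0.83 (pooled SD 0.27). The Icosl fold change turned to 0.10 without control 1 and 0.24 without HFD 1, and was −0.42 without control 2 and −0.55 without HFD 2.

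Pvr, the CD155 gene, was the 1 member with a positive log2 fold change. Its means of 4.21 and 6.80 TPM on the control diet stood beside 7.83 and 6.22 TPM on the HFD (0.33, SE 0.38, limma adjusted p = 0.802), and the sets overlapped. Its shares of 34.4%, 39.6%, 39.6% and 42.4% overlapped too. The Pvr fold change was 0.035 without control 1, 0.62 without control 2 and 0.18 without HFD 1. Cd83 averaged 12.1, 14.4, 13.6 and 4.01 TPM and was found in 36, 16, 19 and 12 cells (−0.74, SE 0.40, adjusted p = 0.503). HFD 2 alone was low, and without it the Cd83 fold change was 0.036. In control 1 more cells held Cd83 than in control 2 at a similar mean, and its median in those cells was 23.03 TPM against 54.8 TPM.

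The number of the 10 ligand transcripts held per cell was lower in the HFD sets. Its mean is the sum of the shares of the 10 genes, so it restates those shares and is not a separate result. Cells held a mean of 4.31 and 3.86 of the 10 in control 1 and control 2 and of 3.32 and 3.08 in HFD 1 and HFD 2, a difference of −0.887 (exact permutation p = 0.333). At least 4 were held by 68.8% of cells in control 1, 54.9% in control 2, 44.0% in HFD 1 and 40.2% in HFD 2. Every control cell held at least 1 (0 of 93 and 0 of 91 without any allow shares of up to 3.23% and 3.30%), and 1 cell of HFD 1 and 3 of HFD 2 held none. The median number of genes above 0 TPM was 6895, 6130, 6857 and 6348.5 in control 1, control 2, HFD 1 and HFD 2, so the sets of one diet differed more in genes per cell than the diets did. Within each diet, the set with more genes per cell also had the higher mean number of ligand transcripts. The part of genes per cell in this number was not tested.

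**Figure D4:**
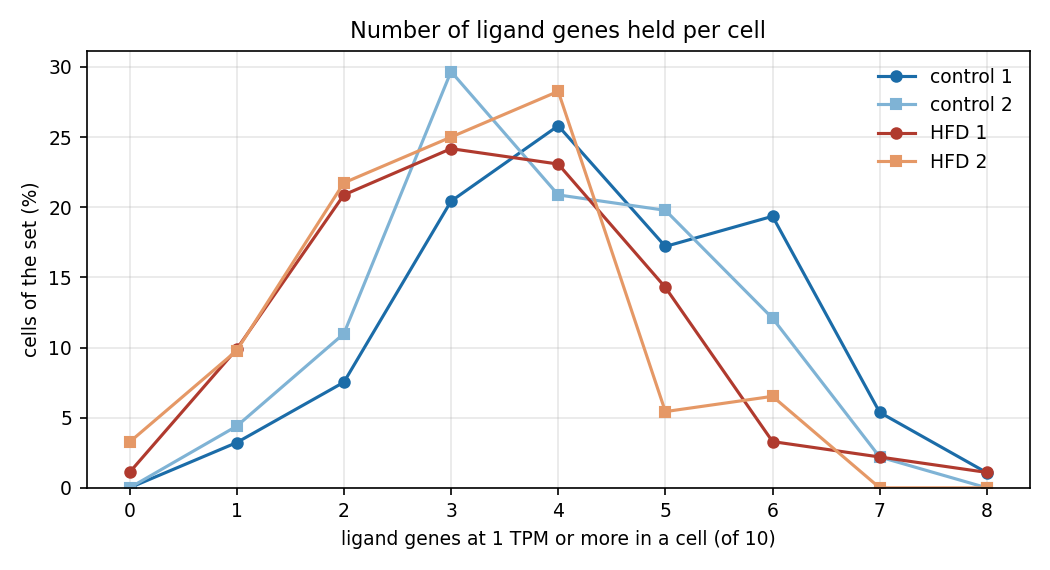
Percent of cells of each set against the number of the 10 ligand genes at 1 TPM or more in the cell. The HFD curves are shifted toward fewer genes, with means of 3.32 and 3.08 against 4.31 and 3.86 in the control sets.

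Correlations between ligand genes from cell to cell were weak and differed between sets. Over the 45 pairs of members, Spearman's rho across cells, averaged over the 4 sets, lay between −0.11 and 0.13 with a median of 0.02, while in single sets it ranged from −0.30 to 0.30. Cells of a set share library and depth, and sparse values hold such figures near 0, so independence cannot be read from them. Of cells with Btnl4, 78.4%, 68.7%, 50% and 40% held Sectm1b in control 1, control 2, HFD 1 and HFD 2, and of cells without Btnl4 26.3%, 62.5%, 53.8% and 54.1%, so the difference in control 1 was not seen in the other sets. Sectm1b against the mean log2 level of the class II genes gave 0.15, −0.11, 0.01 and 0.10 in control 1, control 2, HFD 1 and HFD 2. Among cells with Cd74 at 1 TPM or more, 68.1% and 64.6% held Sectm1b on the control diet, compared with 56.5% and 51.0% on the HFD. The median Cd74 level of these cells was 342 and 365 TPM on the control diet, and 190 and 175 TPM on the HFD. The cells compared were therefore not alike in class II level, and a link between the genes was not tested. For Btnl2 the corresponding shares among cells with Cd74 were 47.3% and 40.2% against 15.2% and 29.4%. Only 2 and 9 control cells lacked Cd74, too few for a comparison. In HFD 1 and HFD 2, 46.7% and 39.0% of cells without Cd74 held Sectm1b, and 24.4% and 7.32% held Btnl2. For Btnl2 the share was thus higher without Cd74 in HFD 1 and lower without it in HFD 2. Against the proliferation markers, the rho of Sectm1b was negative in all 4 sets (−0.20, −0.32, −0.04 and −0.13), as was that of Btnl1 (−0.33, −0.23, −0.08 and −0.21). Sectm1a and Cd83 were also negative in all 4 sets, Icosl was positive in all 4 (0.19, 0.05, 0.22 and 0.12), and the other members had mixed signs. Against genes per cell, Sectm1b gave −0.12, −0.33, 0.02 and −0.07, and Btnl1 −0.26, −0.14, −0.07 and −0.03. Sectm1a and Cd83 were negative in all 4 sets here too, and Icosl was again positive in all 4 (0.22, 0.02, 0.15 and 0.12). These signs are the same as against the proliferation markers, and the 2 measures were not separated.

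The genes most like each member across cells were ranked by the same mean rho among 10312 genes held by at least 10% of the cells of every set, a level that 7 of the 10 members reached. For Sectm1b they were Pdgfa (0.19), Lgr5 (0.18), Lbh, Lpp and Ppp1r1b, and the rho with Lgr5 was 0.25, 0.25, 0.02 and 0.22 in control 1, control 2, HFD 1 and HFD 2. For Sectm1a, ranked although it was rarer, they were Ndufb10, Rpl18, Rps18, Fau and Cyp2c68 (0.20 to 0.17). Btnl5 came first for Btnl4 (0.26), before Trrap, Arrb1, Myo6 and Baiap2l1. For Btnl6 they were Ranbp6 (0.23), Uba1y, Rock1, E4f1 and Btnl5 (0.21). The shared stretches of Btnl4, Btnl5 and Btnl6 bear on these figures, and their part was not tested. For Btnl1 they were Snhg7, 2900026A02Rik, Eps8l3, Muc4 and Aldoa, and for Btnl2 Zfp654, Ppic, Pot1a, Gstt3 and Flna, from 0.20 to 0.18 and 0.19. Those of Pvr began with Prickle3 (0.23), before Pitx1, 4930523C07Rik, Vamp3 and Emc1, and those of Cd83 with Dhrs3 (0.20), before Rnf7, Tmem194b, Pdcl3 and Tsc22d4. All are weak correlations and are given as a description. Each list is the top of at least 10311 values, and the highest of so many lie above 0 through ranking alone. How high they would reach without any association was not tested.

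No other T cell-facing ligand that was tested was called. Of a list of 68, 60 were in the table and 30 passed the filter on low genes: 0 were called in either direction, 0 had an unadjusted p under 0.05, and the median log2 fold change was 0.19, near that of all genes. The 4 with the smallest p were Clec2d, a ligand of an inhibitory natural killer receptor (0.62, SE 0.33), Btnl5 (−0.47, SE 0.26), Lgals9, which encodes galectin-9 (0.48, SE 0.29), and Ccl25, the chemokine that draws CCR9-positive T cells to the small intestine (0.41, SE 0.28), at limma adjusted p of 0.503, 0.512, 0.555 and 0.597. Of 7 tested MHC class II genes 6 were called lower, and Cd74 and H2-Ab1 had log2 fold changes of −1.38 (SE 0.26) and −1.57 (SE 0.29), close to those of Sectm1b and Btnl2. Ciita, the class II co-activator, had −0.99 (SE 0.36, adjusted p = 0.300).

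No tested gene of 2 further lists, interferon receptors and responses, and HNF4, CDX and NF-kappa B factors, was called. Of 25 tested genes of interferon receptors and responses, 0 were called and 2 had an unadjusted p under 0.05, where 11.1% of all tested genes did. These were Tgtp2 (set means of 9.54 and 4.79 TPM on the control diet against 1.38 and 2.16 TPM on the HFD; −1.51, SE 0.43, limma adjusted p = 0.162) and Igtp (5.93 and 11.6 against 2.28 and 4.43 TPM; −1.15, SE 0.41, adjusted p = 0.293), both interferon-induced GTPase genes, named here after their values were seen. Neither gene's sets overlapped, and reads of Tgtp2 may be split with its close copy Tgtp1. For Irf1, an interferon-induced transcription factor, the log2 fold change was −0.0064 (SE 0.25). Of 9 tested HNF4, CDX and NF-kappa B genes, 0 were called and 1, Cdx2, had an unadjusted p under 0.05 (−0.67, SE 0.31, limma adjusted p = 0.432); it is named here after its value was seen. An adjusted p above the threshold does not show that these genes were equal between the diets.

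Lgr5 itself was at 1 TPM or more in a mean of 94.6% of control cells and 95.1% of HFD cells. Some leukocyte transcripts were almost absent, while others were found in many cells at low set means. Ptprc, the pan-leukocyte CD45 gene, reached 1 TPM in 0, 0, 0 and 1 cells (control 1, control 2, HFD 1, HFD 2), Cd3e in 0, 0, 1 and 0, Cd7, the receptor gene for SECTM1 proteins, in 0, 0, 0 and 1, and Cd3g, Flt3 and Ccr7 in no cell. Tigit, a PVR receptor gene, was found in 54, 42, 31 and 35 cells, Cd3d in 27, 21, 20 and 21 and Xcr1 in 43, 31, 24 and 30, at set means of at most 5.34, 1.24 and 1.36 TPM. Itgam, a myeloid marker, was found in 18, 14, 9 and 14 cells, at set means of at most 2.70 TPM. At least 1 marker of a T cell list was held by 49, 40, 35 and 40 cells. For a list of dendritic cell and macrophage markers these numbers were 56, 45, 32 and 42. Paneth-marker cells, with at least 3 of 8 markers at 10 TPM or more, numbered 6, 1, 19 and 15, goblet-marker cells 4, 3, 6 and 3, and the 10 enterocyte markers summed to 686, 813, 1255 and 1403 TPM. With Paneth-marker and goblet-marker cells left out, the Sectm1b fold change was −1.46 (SE 0.26, limma adjusted p = 0.00745), Btnl2 −1.28, Btnl4 −0.80 and Btnl1 −0.38. Of all TPM, Rn45s, the precursor of ribosomal RNA, made up 39.1%, 24.6%, 26.9% and 18.6%, and with it left out the fold changes of these 4 genes, in that order, were −1.60, −1.54, −1.05 and −0.70. The part of the enterocyte markers in the results was not tested. Read depth cannot be recovered from TPM, so it is unknown here.

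**Figure D5:**
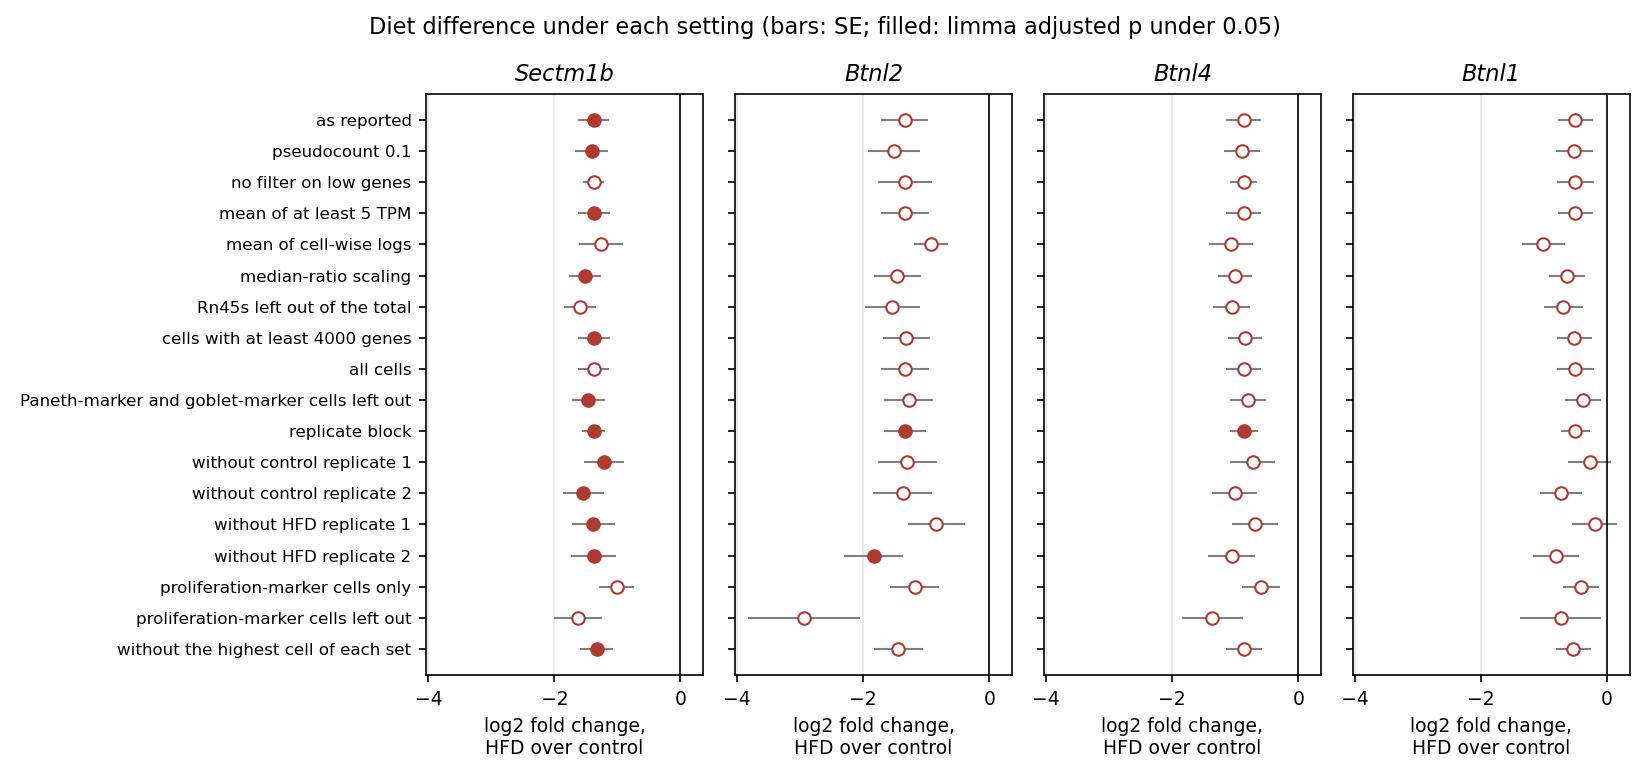
Log2 fold change of Sectm1b, Btnl2, Btnl4 and Btnl1 (HFD over control, bars SE) as reported and under each alternative; filled points have a limma adjusted p under 0.05. All points lie below 0 for the 4 genes, and the call of Sectm1b holds in 11 of 17 alternatives.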

How the data were processed

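Single-cell levels were deposited by the authors as TPM, 1 value per gene and cell, made with Bowtie2 and RSEM on mm10 per the submitters' processing notes; the sources used here give neither versions nor annotation. A set, all cells of 1 diet and 1 number in the titles with at least 2000 genes above 0 TPM, was the unit of replication. TPM was averaged per set and fitted with limma 3.58.1 (R 4.3.3; mean-variance trend, two-sided, Benjamini-Hochberg over all tested genes, threshold 0.05) on log2 values with a pseudocount of 1. Tested genes averaged 1 TPM or more over the sets. A cell held a transcript at 1 TPM or more; shares were compared by exact two-sided permutation of the 4 sets. Cells were sorted into wells and no doublet caller was run. The members and the gene lists were chosen with earlier results of these data known. Named are all 10 members, up to 4 other ligands with the smallest p, the 5 genes most like a member, and markers or class II and interferon genes that a result uses. Alternatives were the pseudocount, gene and cell filters, scaling, the way of averaging, marker-bearing cells, a replicate block and leaving out each set. 1 further motif and 1 gene of the lists are not reported here. Positions are from GENCODE M21 and sequences from RefSeq.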

Additional observations from a re-analysis of the deposited data

How the results depend on the processing

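The Sectm1b log2 fold change was negative in all 17 alternatives (−1.62 to −1.01), as were those of Btnl2, Btnl4, Btnl1 and Btnl6. The number of members called, 1 as reported, was 0 with no filter on low genes, with logs averaged per cell, with Rn45s left out of the total, with all 375 cells, and in proliferation-marker cells alone or left out; it was 1 to 2 when 1 set was left out, the second being Btnl2 without HFD 2. With the set number as a replicate block 3 members were called, Sectm1b, Btnl2 and Btnl4 (limma adjusted p = 0.000192, 0.0255 and 0.0299). Over all genes 59 were called as reported (43 higher, 16 lower; 25 and 17 with median-ratio scaling), 0 with no filter (1398 at an unadjusted p under 0.05), 6 without Rn45s, 14 with all cells, 27 without Paneth-marker and goblet-marker cells, 635 with the block, 81 to 148 when 1 set was left out, 31 in proliferation-marker cells and 0 without them (645 at an unadjusted p under 0.05). The median fold change of all genes moved from 0.13 to 0.0013 with median-ratio scaling and to −0.048 without Rn45s. The set numbers are only shared labels: differences between set 1 and set 2 correlated at 0.23 between the diets, across genes, and there are only 2 pairs.

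The Sectm1b share difference was −11.7 points at 10 TPM, −13.0 in proliferation-marker cells and −39.0 without them. Icosl turned to 0.092 with logs per cell and 0.010 in proliferation-marker cells, and ranged from −0.55 to 0.24 when 1 set was left out; its share difference turned to −0.845 points without proliferation-marker cells. Cd83 ranged from −1.51 to 0.036 when 1 set was left out, and Sectm1a turned to 0.48 in proliferation-marker cells. The settings on proliferation-marker cells and on the highest cell were chosen after seeing the data. The cause of each change was not tested. Leaving out 1 set leaves a diet with 1 set, which is then assumed to vary like the others. With 2 sets a diet the exact p cannot go below 0.333, and without read depth a value of 0 cannot be told apart from a missed transcript.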
